A study of Mus musculus with 6 samples.

Results

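The Tnni2, Tnnt3, H19 and Igf2 locus is a window of mouse chromosome 7, from 149610000 to 149875000 on build mm9, in which those 4 genes follow each other in that order. Its members are the peaks of H3K27ac, the acetylated histone H3 of active promoters and enhancers, that overlap the window by at least 1 bp. They number 183 of 243962 peaks, and they merge into 68 of 112926 regions. The peaks come from chromatin immunoprecipitation followed by sequencing (ChIP-seq) in C2C12, a mouse myoblast cell line that forms myotubes in culture, studied in a series on the p53-family factor TAp63 in myogenesis. There was 1 H3K27ac library each for proliferating cells, cells at 36 h of differentiation and cells at 72 h of differentiation. Each ChIP library was made from DNA pooled over 4 assays, and the 3 input libraries had no list of their own among the files used here. No genetic change or other agent was named for any of the groups. With 1 library per stage there is no replicate spread, so no test between stages was made, and every interval below covers counting error only.

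Tnni2 encodes the fast skeletal isoform of troponin I, the inhibitory subunit of the calcium switch of the thin filament, and Tnnt3 encodes fast skeletal troponin T, the subunit that binds tropomyosin. Both belong to the contractile program of differentiating muscle. H19 is a long noncoding RNA expressed from the maternal allele and is the host of miR-675, while Igf2 encodes insulin-like growth factor 2, a growth factor expressed from the paternal allele in most tissues. H19 and Igf2 share distal enhancers, and an imprinting control region, bound by CTCF on its unmethylated maternal copy, governs which gene they reach. Peak lists do not separate the alleles. In the RefSeq order of GRCm38.p6, used here for gene order alone, the genes between Tnni2 and Igf2 are Lsp1 (an actin-binding protein), Prr33, Tnnt3, Mrpl23 (a protein of the mitochondrial ribosome), Nctc1 (a noncoding RNA of the H19 region), H19 with Mir675, and Gm33148. Gene positions on mm9 were not used here, so peaks are given by their distance from the window start, with the Tnni2 end first, and no peak is assigned to a gene. For the same reason the muscle identity of the cells was not checked at marker genes.

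The RNAs and promoters below show what the locus encodes at its H19 and Igf2 end and beside Tnnt3. The mature microRNAs, from RefSeq on GRCm38.p6, are those of Mir675, within H19, and of Mir483, within Igf2, and each is written 5′ to 3′ with the seed (bases 2 to 8) in capitals. The 4 seeds differ from each other.
mmu-miR-675-5p: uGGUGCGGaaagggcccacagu
mmu-miR-675-3p: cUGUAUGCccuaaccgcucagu
mmu-miR-483-5p: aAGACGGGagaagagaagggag
mmu-miR-483-3p: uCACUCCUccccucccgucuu

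RefSeq promoter windows of 300 bases (250 before and 50 after a start) were at hand for 1 of the 4 genes, Igf2, with 4 starts. They were searched on both strands for the E-box CANNTG, bound by myogenic factors, and for MCAT (CATTCC), bound by TEAD factors. The CTCF core, the MEF2 site and the CArG box were also searched. The p53 family search used RRRCWWGYYY, which is a part of the full site and not the whole site. In each search overlapping matches were counted. MCAT occurred in 3 of the 4 Igf2 windows and in 14.7% of all 32851 promoter windows, and the E-box in 2 of the 4 and in 72.3% of all. The second Igf2 start held 2 MCAT matches, a number reached by 1.36% of windows, and 1 CArG box, found in 1.63% of windows. Igf2 start 4 held 1 match to this part of the p53 family site, present in 8.36% of windows. No MEF2 site (3.19% of windows) and no CTCF core (0.0365%) was found in these letters of the Igf2 windows. The Prr33 window, next to Tnnt3 in the gene order, held 6 E-boxes, a number reached by 0.67% of windows. These 2 windows were chosen for printing after their matches were seen, and capitals mark E-boxes and MCAT. The first is chr7:142661222-142661521 and the second chr7:142506722-142507021, both on the minus strand of GRCm38.p6, and neither was placed on mm9.
Igf2 start 2: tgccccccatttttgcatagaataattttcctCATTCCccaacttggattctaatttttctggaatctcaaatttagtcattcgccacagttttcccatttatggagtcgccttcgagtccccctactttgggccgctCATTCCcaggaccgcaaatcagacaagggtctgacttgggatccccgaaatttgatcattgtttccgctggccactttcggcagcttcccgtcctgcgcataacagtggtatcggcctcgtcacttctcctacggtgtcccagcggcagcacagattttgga
Prr33 start 1: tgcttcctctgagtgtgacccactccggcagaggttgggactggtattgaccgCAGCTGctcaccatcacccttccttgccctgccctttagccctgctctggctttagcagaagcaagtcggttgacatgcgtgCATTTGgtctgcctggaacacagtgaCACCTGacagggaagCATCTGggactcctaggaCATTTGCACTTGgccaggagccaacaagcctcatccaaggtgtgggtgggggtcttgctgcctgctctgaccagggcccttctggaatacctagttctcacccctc

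Differentiating cells had more than 3 times the length under H3K27ac peaks in this window that proliferating cells had. The window held 31 peaks in proliferation, 74 in 36 h cells and 78 in 72 h cells. Peaks covered 24.2 kb (9.13% of the window) in proliferation, 83.5 kb (31.5%) in 36 h cells and 82.4 kb (31.1%) in 72 h cells. Later stages were thus 2.39 (36 h) and 2.52 (72 h) times proliferation in peak number, and 3.45 (36 h) and 3.41 (72 h) times in length. Over the whole lists the ratios to proliferation were 1.57 (36 h) and 1.70 (72 h) for peak number, and 1.79 (36 h) and 2.03 (72 h) for length. The step from 36 h to 72 h was small, with 72 h at 1.05 times 36 h in peak number and 0.987 times in length. Peak number depended on the threshold: with a fold of at least 5, 72 h had 0.796 times the peaks of 36 h, and with lists limited to an equal number of peaks 72 h had 1.23 times the peaks of proliferation, while the ratio of length stayed at 2.87 or more at 72 h. Peaks were also wider, with a mean of 780 bp in proliferation, 1128 bp in 36 h cells and 1056 bp in 72 h cells, and those over 2 kb numbered 3 in proliferation, 14 in 36 h cells and 12 in 72 h cells. They made up 9.68%, 18.9% and 15.4% of the window's peaks, and 2.61%, 4.53% and 5.25% of all peaks, at proliferation, 36 h and 72 h.

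**Figure D1:**
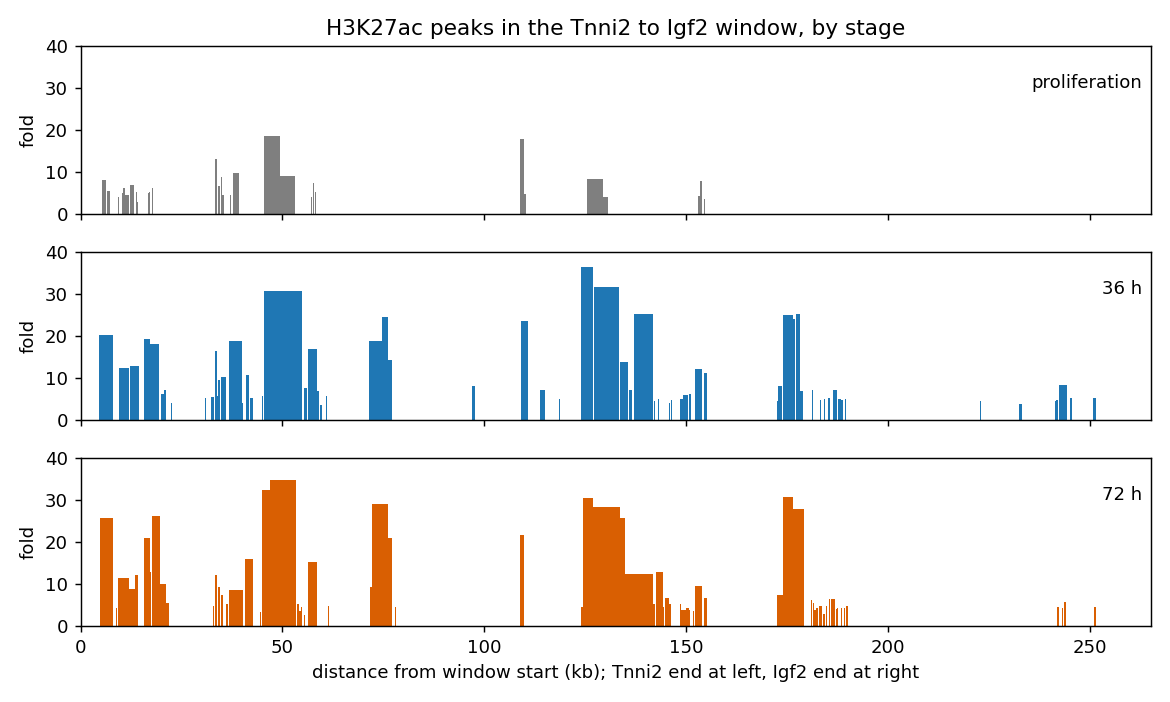
Each bar is an H3K27ac peak, drawn from its start to its end in kb from the window start (x axis), with the fold enrichment the authors list for it as height (y axis). Proliferation has 31 peaks with folds up to 18.6 and none past 155 kb. The later stages, 36 h (74 peaks) and 72 h (78 peaks), fill most of the same places more broadly and add blocks near 71.5 kb and 172 kb. Near 109 kb, peaks covered less at 72 h (0.894 kb) than in proliferation (1.20 kb).

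A gain of length was common in the genome, and its size here was not. When the genome was tiled with windows of the same length, 42.0% of windows had at least 2 times the length under peaks at 36 h that they had in proliferation, and 51.7% had so at 72 h. Among windows with a proliferation peak, the shares were 36.6% at 36 h and 45.0% at 72 h. For peak number, 37.8% of windows in 36 h cells and 45.9% in 72 h cells were at least 2 times proliferation. A ratio past 2 was therefore common among windows. For 72 h over 36 h, 19.8% of windows reached 2 times in length and 20.8% in peak number, which the locus did not. The Tnni2 to Igf2 window had 59.3 kb more under peaks at 36 h than in proliferation, and 1 of 9939 tiled windows had at least as much. At 72 h it had 58.2 kb more than in proliferation, matched by 3 windows. In total length, 132 windows (1.33%) were at least as covered in proliferation, 4 in 36 h cells and 3 in 72 h cells. The window was picked with these lists known and placed around its genes, while the tiles fall at fixed steps, so these ranks are descriptive. The tiles above it at both later stages were 2 neighbours on chromosome 1, from 137270519 to 137800520, and one on chromosome 2 from 173045654 to 173310654. Among the 2071 tiles with at least 5 kb in proliferation, 111 (5.36%) reached the window's 36 h ratio and 163 (7.87%) its 72 h ratio.

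**Figure D2:**
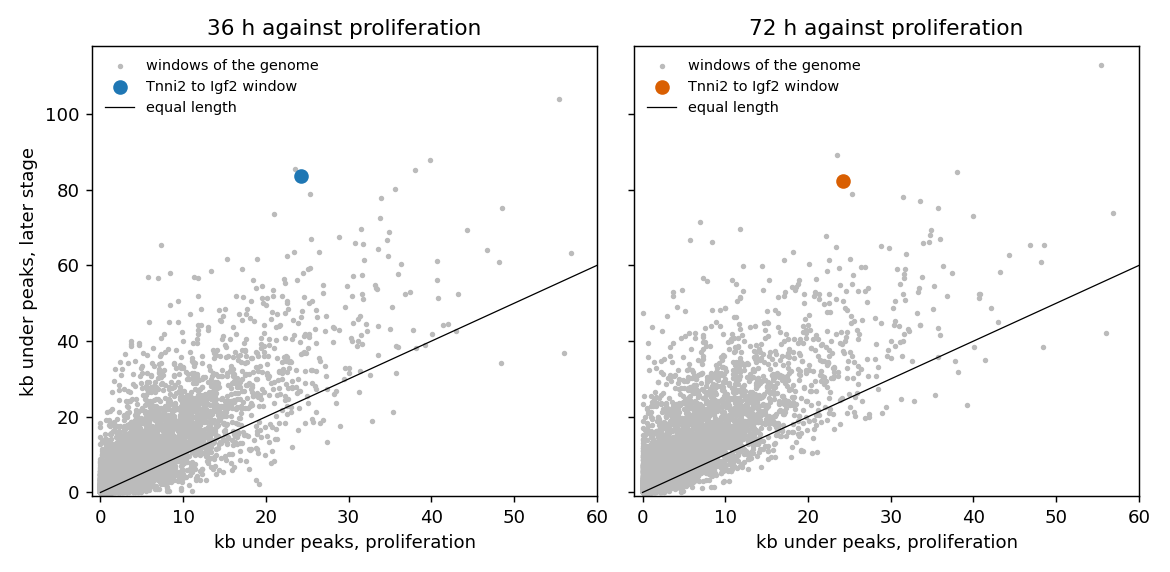
Each grey point is a genome window of the same length as the locus, with kb under H3K27ac peaks in proliferation (x axis) and at 36 h (left) or 72 h (right, y axis), and the large point is the Tnni2 to Igf2 window. At 24.2 kb in proliferation it lies at 83.5 kb in 36 h cells and 82.4 kb in 72 h cells, far above the line of equal length and above nearly all other windows.

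No region with a proliferation peak lacked a peak at 36 h or at 72 h. Every one of the 31 proliferation peaks was overlapped at 36 h (100%, 95% Wilson interval 89.0 to 100%), where 76.3% of the whole proliferation list was. At 72 h, 30 of the 31 were overlapped (96.8%, 83.8 to 99.4%), and 82.0% of the whole list. In the other direction, 16 of 74 peaks of 36 h overlapped a proliferation peak (21.6%, 13.8 to 32.3%), against 42.2% of the whole 36 h list. Of the 78 peaks of 72 h, 18 did so (23.1%, 15.1 to 33.6%), against 40.2% of the whole 72 h list. Between the later stages, 67 of 78 peaks of 72 h overlapped a 36 h peak (85.9%, against 66.5% of the list), and 62 of 74 peaks of 36 h overlapped a 72 h peak (83.8%, against 77.0% of the list). Neighbouring peaks are not independent, so the intervals were not used as a test against the lists. Of the length under proliferation peaks, 98.6% was also under peaks in 36 h cells and 96.6% in 72 h cells, and 0.021 kb was under proliferation peaks alone. The later stages shared 69.6 kb, which was 72.2% of their union. They shared 28.5% (36 h) and 28.1% (72 h) of their union with proliferation. No genome share of shared length is given, so these lengths describe the locus alone.

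The 68 merged regions fell into 4 of 7 possible classes. Regions called gained here, which had a peak at each later stage but lacked one in proliferation, numbered 30 (44.1%), against 22.3% of all regions of the genome. The excess was smaller among stronger peaks. With a −log10 q of at least 5, 14 of 49 regions were gained (28.6%, against 23.7% in the genome), and a fold of at least 5 gave 14 of 49 (28.6%, against 23.4%). With lists of equal number of peaks it was 13 of 43 (30.2%, against 16.6%). A peak at all 3 stages was found in 15 regions (22.1%, against 25.6% in the genome). A peak at 36 h alone was found in 12 regions (17.6%, against 15.9%) and at 72 h alone in 11 (16.2%, against 23.9%). These shares also depended on the threshold. For 36 h alone they were 36.7% (against 17.3%) with a −log10 q of at least 5 and 34.7% (against 16.7%) with a fold of at least 5. With lists of equal number it was 30.2% (against 12.5%). For 72 h alone the shares were 6.12% (against 18.1%), 8.16% (against 20.4%) and 4.65% (against 14.7%) at these settings. No region had a peak in proliferation alone, a class of 6.7% of the genome's regions, and none joined proliferation to just 1 later stage, classes of 1.7% (36 h) and 3.95% (72 h). Neighbouring regions of a window are not independent of each other, so no test was made of these shares. The shared regions had a median width of 2290 bp and the gained ones of 981 bp. Regions of 1 stage were short and weak, with 148 to 799 bp and folds of 3.59 to 6.95 at 36 h, and 147 to 596 bp and folds of 3.32 to 5.47 at 72 h.

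Stitching the peaks of all lists across gaps of up to 5 kb, a distance chosen after the lists were seen, placed them in 11 blocks. Of these, 4 had a proliferation peak, and they held 24.2 kb under peaks in proliferation, 62.4 kb in 36 h cells and 61.9 kb in 72 h cells. The other 7 had none in proliferation, with 21.1 kb in 36 h cells and 20.5 kb in 72 h cells. Most of that length lay in the blocks at 71.5 kb (5.56 kb at 36 h, 5.77 kb at 72 h) and 172 kb (9.60 and 13.0 kb). Along the window, 10 of 27 bins of 10 kb had a peak in proliferation, 21 in 36 h cells and 19 in 72 h cells, and 6 had none at any stage. Blocks and bins were not counted over the genome, so these numbers describe the locus alone. The longest stretch with no peak was 110 kb in proliferation, from 154.6 kb to the window end. At 36 h it was 33.2 kb, from 189.6 to 222.8 kb, and at 72 h 51.9 kb, from 190.0 to 241.9 kb.

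**Figure D3:**
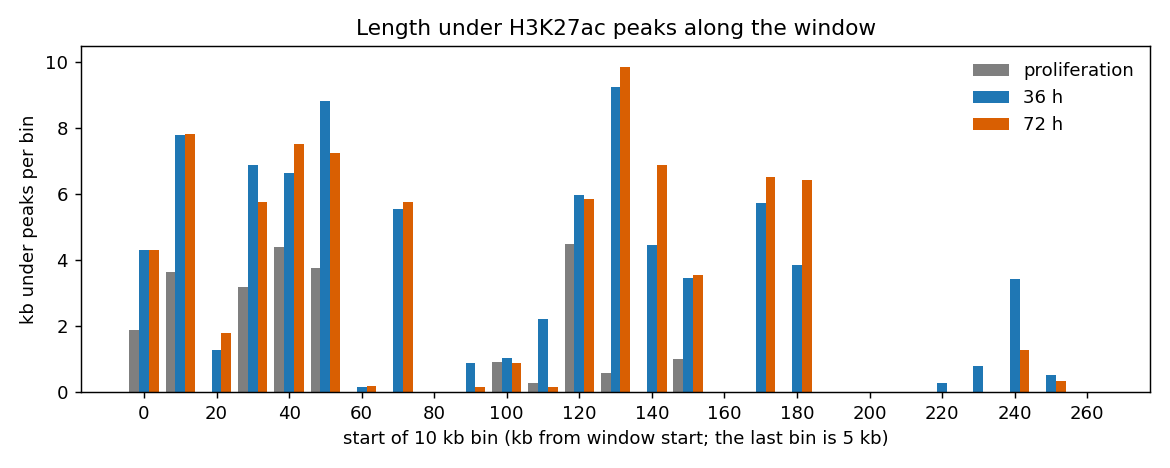
Bars give the kb under H3K27ac peaks (y axis) in successive 10 kb bins from the window start (x axis; grey proliferation, blue 36 h, orange 72 h). The bin at 130 kb has 0.591 kb in proliferation, 9.26 kb in 36 h cells and 9.86 kb in 72 h cells, and the bins at 70, 140, 170 and 180 kb have bars at the later stages and none in proliferation.

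To compare libraries, the number of ChIP fragments at each summit was recovered from the fold and p of the peak, and divided by the relative ChIP depth (1 for proliferation, 1.2 for 36 h and 1.1 for 72 h). Ratios of fragments below are per depth, with exact 95% binomial intervals. At the genome background a peak needed 9 fragments in proliferation, 9 in 36 h cells and 8 in 72 h cells.

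The block nearest the Tnni2 end, at 4.43 to 22.6 kb, was broken into many short peaks in proliferation and filled in later. It had 13 peaks over 5.53 kb in proliferation, 9 peaks over 13.4 kb at 36 h and 12 peaks over 13.9 kb at 72 h, so that its peak number was highest in proliferation and its length lowest. Its strongest summit had 33 fragments in proliferation (at 11.4 kb), 86 in 36 h cells (at 5.8 kb) and 91 in 72 h cells (at 17.9 kb). These lie in different regions. The block's ratios to proliferation, 2.18 (1.44 to 3.36) at 36 h and 2.51 (1.67 to 3.86) at 72 h, thus compare unlike places. The region with the proliferation summit, from 149619192 to 149621944, had ratios of 0.989 (0.606 to 1.62) at 36 h and 1.41 (0.891 to 2.25) at 72 h. Both of its intervals include 1, and its 72 h summit lay 761 bp from its proliferation summit. The first region, from 149614435 to 149617990, carried 1.67 kb of peaks in proliferation, 3.56 kb in 36 h cells and 3.34 kb in 72 h cells. Its summit had 27 fragments in proliferation, 86 in 36 h cells and 80 in 72 h cells. The region from 149627221 to 149629599, named for having the highest ratios of the shared regions, had 17 fragments in proliferation, 76 in 36 h cells and 91 in 72 h cells. These are 3.74 (2.19 to 6.75) times proliferation at 36 h and 4.88 (2.88 to 8.73) times at 72 h, and its length under peaks was 0.421 kb in proliferation, 2.15 kb in 36 h cells and 2.24 kb in 72 h cells.

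The second block, at 30.7 to 61.4 kb, held the highest fold of the window in proliferating cells and was longer at both later stages. Peaks covered 11.4 kb in proliferation (47.0% of the window's total at that stage), 22.5 kb in 36 h cells and 20.7 kb in 72 h cells. Its core, from 149654846 to 149664944, was 2 peaks of 3884 and 3657 bp in proliferation, and a single peak of 9543 bp spanned most of it at 36 h. The core had 71 fragments in proliferation, 98 in 36 h cells and 114 in 72 h cells. The ratio to proliferation was 1.15 (0.842 to 1.59) at 36 h, an interval that includes 1, and 1.46 (1.08 to 2.0) at 72 h. Its fold was 18.6, 30.8 and 34.9 in proliferation, 36 h and 72 h, above 98.9%, 99.4% and 99.8% of the peaks of the same list. Beside it, the region from 149643227 to 149643735 had 38 fragments in proliferation, 52 in 36 h cells and 37 in 72 h cells, and both ratios to proliferation, 1.14 (0.739 to 1.79) in 36 h cells and 0.887 (0.548 to 1.43) in 72 h cells, have intervals that include 1. The region from 149646703 to 149650147 had 32 fragments in proliferation, 80 in 36 h cells and 78 in 72 h cells. These are 2.09 (1.37 to 3.26) times proliferation at 36 h and 2.22 (1.45 to 3.46) times at 72 h. Its fold was above 85.2% of the proliferation list, 94.7% of the 36 h list and 74.4% of the 72 h list. The local background at the summit was 1.31 times the genome background in proliferation, 1.60 times at 36 h and 4.62 times at 72 h.

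A block at 71.5 to 78.1 kb, the next after the second block, had no peak in proliferation and was strong at both later stages. It held 3 peaks over 5.56 kb at 36 h and 4 peaks over 5.77 kb at 72 h. Its main region, from 149681499 to 149686131, had 78 fragments in 36 h cells and 91 in 72 h cells, with 72 h at 1.27 (0.928 to 1.74) times 36 h. Its fold exceeded 98.0% of the 36 h list and 99.2% of the 72 h list. Per depth the summits correspond to 65.2 fragments in 36 h cells and 82.9 in 72 h cells, where 9 would have sufficed in proliferation at the genome background.

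Between this block and the next long one at 124 kb, peaks were few, and the strongest region had like fragment numbers at the 3 stages. The region from 149718905 to 149720725 had 60 fragments in proliferation, 75 in 36 h cells and 67 in 72 h cells, giving ratios to proliferation of 1.05 (0.735 to 1.49) in 36 h cells and 1.02 (0.707 to 1.47) in 72 h cells. Its length under peaks was 1.20 kb in proliferation, 1.76 kb in 36 h cells and 0.894 kb in 72 h cells. In proliferation its fold of 17.8 was above 98.6% of the list. The block at 96.8 kb, with no peak called in proliferation, had 26 fragments in 36 h cells and 11 in 72 h cells, with 72 h at 0.461 (0.205 to 0.965) times 36 h. The region from 149723664 to 149725005, also with no proliferation peak, had 22 fragments over 1.34 kb at 36 h and 12 fragments over 0.159 kb at 72 h. Its ratio of 72 h to 36 h was 0.594 (0.268 to 1.25), an interval that includes 1.

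The longest block, at 124 to 156 kb, had the most added length of the 11. It had 5 peaks over 6.08 kb in proliferation, 18 over 23.2 kb at 36 h and 18 over 26.2 kb at 72 h, or 3.81 times proliferation in 36 h cells and 4.30 times in 72 h cells. Its first region, from 149733828 to 149743503, carried 5.08 kb of peaks in proliferation, 9.36 kb in 36 h cells and 9.36 kb in 72 h cells. It held the highest fold of the window at 36 h, 36.4, above 99.8% of that list, and 30.4 at 72 h, above 99.4%. In proliferation its fold was 8.35, above 78.7% of the list. Its summit had 73 fragments in proliferation, 116 in 36 h cells and 106 in 72 h cells, with ratios to proliferation of 1.33 (0.983 to 1.81) in 36 h cells and 1.32 (0.972 to 1.81) in 72 h cells, whose intervals include 1. The 72 h and proliferation summits of this region lay 848 bp apart. The local background at the summit of each stage was 4.95 times the genome background in proliferation, equal to it at 36 h and 1.22 times it at 72 h. Its part in these ranks was not tested.

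The region that follows without an overlap, from 149743595 to 149752334, had no proliferation peak and 7.98 kb under peaks in 36 h cells and 8.63 kb in 72 h cells. Its strongest summits had 80 fragments in 36 h cells and 80 in 72 h cells, but lay 3342 bp apart, the largest such distance in the window. In the 45 regions with peaks at both later stages the median distance was 136 bp, and in the 15 shared regions the 72 h and proliferation summits were a median of 143 bp apart. At the far end of this block lay the 2 shared regions closest to the Igf2 end. There the 152 kb region had 22 fragments in proliferation, 38 in 36 h cells and 29 in 72 h cells, and the 154 kb region 15 in proliferation, 35 in 36 h cells and 20 in 72 h cells. Ratios to proliferation in the 152 kb region were 1.44 (0.833 to 2.56) at 36 h and 1.20 (0.666 to 2.19) at 72 h. In the 154 kb region they were 1.95 (1.04 to 3.85) at 36 h and 1.21 (0.591 to 2.55) at 72 h. Only the interval of the 154 kb region at 36 h lies above 1, and the others include it.

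A block at 172 to 190.0 kb had no peak called in proliferation and combined strong summits with a chain of weak peaks. It had 15 peaks over 9.60 kb at 36 h and 18 peaks over 13.0 kb at 72 h. The region from 149784010 to 149786458 had 79 fragments in 36 h cells and 96 in 72 h cells, and the adjoining region from 149786514 to 149789221 had 83 in 36 h cells and 87 in 72 h cells. The ratio of 72 h to 36 h was 1.32 (0.972 to 1.80) in the first and 1.14 (0.835 to 1.56) in the second. The fold of the first exceeded 99.4% of the 72 h list, and that of the second exceeded 98.2% of the 36 h list.

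Beyond a gap of 32.8 kb, the Igf2 end of the window held few and weak peaks, more at 36 h than at 72 h. Here 7 peaks covered 5.05 kb at 36 h, 5 peaks covered 1.62 kb at 72 h, and proliferation had none. The strongest had a fold of 8.47 at 36 h, above 72.5% of the list, and of 5.84 at 72 h, above 51.3%. In that region 35 fragments in 36 h cells and 17 in 72 h cells gave a ratio of 72 h to 36 h of 0.529 (0.278 to 0.970). The last region, from 149860849 to 149861389, had 16 fragments in 36 h cells and 15 in 72 h cells. No peak crossed either edge of the window, and the nearest peaks outside lay 30.3 to 30.6 kb before it and 10.7 to 22.2 kb after it.

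**Figure D4:**
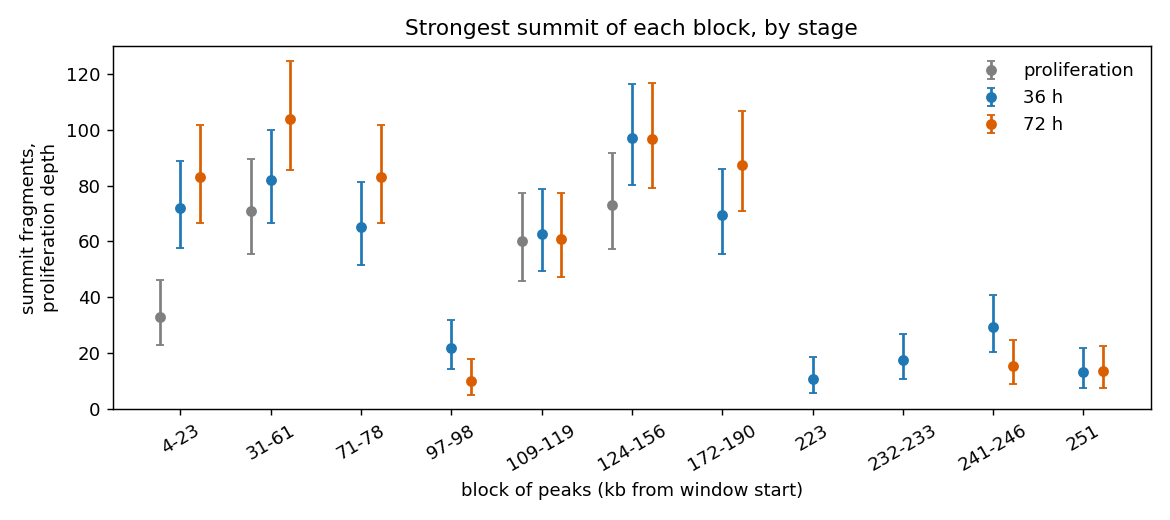
Points give the fragments at the strongest summit of each of the 11 blocks, scaled to the depth of proliferation (y axis), with exact 95% Poisson intervals, by block position in kb (x axis; grey proliferation, blue 36 h, orange 72 h). The strongest summit of a block can lie at a different place at each stage. The 71.5 kb and 172 kb blocks, with no proliferation point, reach 82.9 and 87.4 at 72 h, and the blocks past 220 kb stay below 30 at the later stages.

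Over the 15 shared regions, the ratio of summit fragments to proliferation ranged from 0.881 to 3.74 at 36 h (median 1.33) and from 0.671 to 4.88 at 72 h (median 1.41). Over the 28908 shared regions of the genome the medians were 0.999 in 36 h cells and 1.13 in 72 h cells. At both 36 h and 72 h, 5 of the 15 were at least 2 times proliferation, against 5.2% (36 h) and 9.59% (72 h) in the genome. The interval lay above 1 in 6 regions at 36 h and in 7 at 72 h, and below 1 in none. No genome share of such intervals is given, so these counts describe the locus alone. Between the later stages the median ratio of 72 h to 36 h was 0.995, with no region at 2 times (5.43% in the genome) and no interval clear of 1, where the genome's median was 1.15. Over the 30 gained regions that ratio had a median of 1.05 and a range of 0.461 to 2.12, with 3 intervals above 1 and 2 below. The 3 above were 1.54 (1.04 to 2.30) in the region that starts at 76.2 kb, 2.12 (1.21 to 3.84) at 142 kb and 1.80 (1.08 to 3.05) at 172 kb. The 2 below were those that start at 96.8 and 242 kb, given earlier. These values too have no genome share or median beside them.

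**Figure D5:**
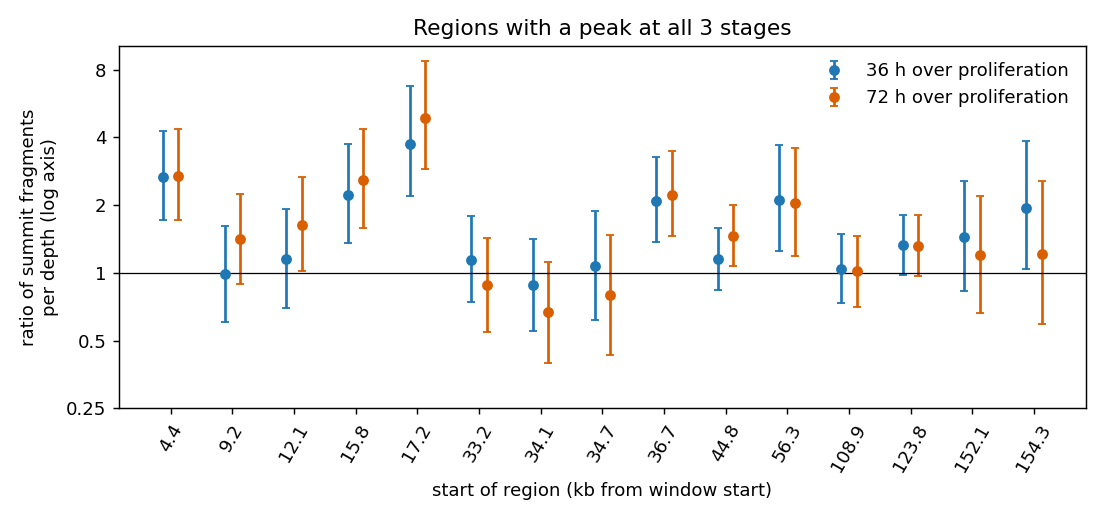
Each pair of points is one of the 15 regions with a peak at all 3 stages, by its start in kb (x axis), with the ratio of summit fragments per depth to proliferation (log y axis; blue 36 h, orange 72 h) and exact 95% binomial intervals. The regions at 4.43, 15.8, 17.2, 36.7 and 56.3 kb lie above 2 at both stages, and those at 33.2 to 34.7 kb lie near or below 1.

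A region can also lack a proliferation peak because that library needed more fragments for a call. At the background that 95% of proliferation peaks lie under, 3.96 times the genome background, 18 fragments were needed. Of the 53 regions with no proliferation peak, 10 had a lower limit of their depth-scaled fragments of at least 18 at 36 h or 72 h (18.9%), and 6 had so at both (11.3%). Over the 70072 such regions of the genome the shares were 13.0% and 5.04%. The other 43 regions of the locus did not reach this limit, so at that background their absence in proliferation could not be read as a difference. At the genome background 9 fragments were enough. The lists give no proliferation background where no proliferation peak was called, so the need at these 43 regions is not known. The median local background at the peaks of the window was 1.31 times the genome background in proliferation and equal to it at both later stages, compared with 1.93, 1.06 and 1.15 over the whole lists. Its part in the number of regions called was not tested.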

How the data were processed

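H3K27ac ChIP-seq peak lists of C2C12 cells (1 per stage) were used as deposited. Per the submitters' processing notes, the authors used BWA, MACS2, deepTools and build mm9. Their versions were not given in the sources used here. Per the narrowPeak column order, the deposited columns hold the position, a score (not analysed), a fold at the summit (ratio of ChIP over background), the −log10 p-value and q-value, and the summit offset (in bp). Fold, p and q are the authors' and were ranked only within a list. The cuts at a fold or −log10 q of at least 5 were the same for all lists. Median local background differed between the lists (1.93, 1.06 and 1.15 times the genome background in proliferation, 36 h and 72 h). Folds printed for several stages were not scaled between lists. The lists held 57101 peaks in proliferation, 89717 at 36 h and 97144 at 72 h, with a smallest −log10 q of 1.32, 1.32 and 1.30. Read totals are not given, and depth was recovered.

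Regions are overlapping peaks merged over the 3 lists. Fragments and background were solved from fold = (pileup + 1) / (background + 1) and the Poisson upper tail, with 1 scale factor per library (0.673, 0.698 and 0.657), which returned 100% of p-values within a relative tolerance of 0.0003. The procedure was tested on simulated data. The local background is read as input signal, an assumption. Regions described in full by rule were the 5 with most length at 72 h, the 3 with the highest fold in each list, all lost regions and both ends. The regions that start at 17.2, 96.8, 114, 152, 154 and 242 kb were described outside this rule. Among them, those at 96.8 and 242 kb are the 2 gained regions whose interval of 72 h over 36 h lies below 1. The 3 gained regions whose interval lies above 1 start at 76.2, 142 and 172 kb, and only that ratio is given for them. Members, lists and rules were chosen with earlier results of these data known. Fixed lists of troponin, IGF and marker genes were not used because gene positions on mm9 were not used here. Python 3.11.15, pandas 2.3.3 and SciPy 1.17.1 were used.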

Additional observations from a re-analysis of the deposited data

How the results depend on the processing

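Each stage is 1 library of pooled assays, so differences between stages cannot be told apart from differences between libraries. No paired analysis was possible because no result comes from a test. Of 95 recomputed values that an alternative could move, 73 stayed within their limits (1.5 times for counts and lengths, a 95% binomial interval for shares and ratios of peak number), 19 moved past them and 3 turned round. Another 23 were fixed by construction, since no peak crosses an edge and some alternatives leave the proliferation list as it is. The ratios of covered length to proliferation stayed within their limit under each alternative tried.

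The order of peak number between 72 h and 36 h turned, to 0.727 with a −log10 q of at least 5, 0.796 with a fold of at least 5 and 0.76 with lists of equal number. With −log10 q of at least 5 there were 18 peaks in proliferation and 40 at 72 h, with 14 gained regions, 18 of 36 h alone and 3 of 72 h alone. With a fold of at least 5 there were 20 peaks in proliferation and 43 at 72 h, with 14 gained regions, 17 of 36 h alone and 4 of 72 h alone. With lists of equal number, 72 h had 38 peaks, 1.23 times proliferation, with 13 gained regions, 13 of 36 h alone and 2 of 72 h alone. Merging across gaps of up to 1 kb, which joins neighbours by construction, left 7 shared regions, 8 gained, 4 of 36 h alone and 0 of 72 h alone. With at least 0.5 of a peak covered, 13.5% of 36 h peaks overlapped proliferation and 67.6% overlapped 72 h. No share of the whole list is given at that setting. Stitching across 10 kb, chosen after seeing the data, gave 6 blocks. Scaling the later lists to proliferation depth, also chosen afterwards, kept every value within its limit.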
